A study of Mus musculus with 6 samples.

Results

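Receptor-type tyrosine phosphatases were examined in mouse lung endothelial cells carrying extra L1CAM and in the same cells carrying an empty vector. The family was followed through 10 genes, Ptprz1, Ptprg, Ptprb, Ptprj, Ptprm, Ptprk, Ptprf, Ptprs, Ptprd and Ptpre, among 19938 genes measured. They were chosen as a family because of Ptprz1, whose fall in L1CAM cells was already known from these arrays. The probe set that stands for a gene was chosen by its mean over all 6 arrays, without regard to group. All 10 had a probe set annotated with that symbol alone. Only Ptprj had more than 1 of these. The probe set kept for Ptprj averaged 9.68 on the log2 scale and the one left out 9.09. The difference of Ptprz1 is therefore given as a description without a test.

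Receptor-type tyrosine phosphatases span the plasma membrane and remove phosphate from tyrosines on the inner side, in opposition to tyrosine kinases. Their outer parts bind cell adhesion molecules, matrix sugars or like molecules on the next cell, so the family couples cell contact to phosphotyrosine signalling. In endothelium the best known member is Ptprb, also called VE-PTP, which acts on the angiopoietin receptor Tek and on VE-cadherin. L1CAM, studied mostly in neurons, is a cell adhesion molecule with immunoglobulin domains. In rat and chicken, the secreted form of Ptprz1, phosphacan, binds neural adhesion molecules, among them the chicken L1 relative Ng-CAM.

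The L1CAM group consisted of 3 arrays from lung endothelial cells of C57BL/6 background that stably carried pcDNA3.1/Hygro(-) encoding full-length mouse L1CAM, which the labels spell LICAM. The control group consisted of 3 arrays from the same kind of cell with empty pcDNA3.1/Hygro(-). Both groups therefore carried the vector, and both were grown to confluence on crosslinked gelatin in serum-containing medium with endothelial growth supplement. The labels call the replicates biological and independent experiments, yet they name a single transfectant per group and do not state whether it was a clone or a pool. The transgene and the transfectant thus cannot be told apart, and the p-values cover the spread between cultures of these transfectants.

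Values are RMA log2 expression values as deposited, on which 1 unit is a doubling. Array medians over all probe sets lay between 6.55 and 6.58, and a probe set under them was not shown to be above background. L1cam, the transfected gene, read 10.49, 10.60 and 10.73 in L1CAM cells and 6.50, 6.77 and 7.31 in control cells, on the sides the labels name. L1CAM replicate 1 stood apart from the other arrays of its group. Across all genes it correlated at 0.9948 and 0.9951 with L1CAM replicates 2 and 3, which correlated at 0.9986 with each other. Its correlation with control replicate 1, 0.9952, was as high as with its own group. Genes are not independent replicates in such a correlation. Results that rest on L1CAM replicate 1 are given with and without it. All 12 endothelial markers lay above the array median on every array, though not equally far. Cdh5 read 13.02 to 13.07 in L1CAM cells and 13.10 to 13.13 in control cells. Pecam1 read 12.56 to 12.60 in L1CAM cells and 12.63 to 12.67 in control cells. Vwf and Cldn5 lay close to the medians. Vwf read 6.82 to 6.87 in L1CAM cells and 6.82 to 6.88 in control cells. Cldn5 read 6.79 to 6.91 in L1CAM cells and 7.01 to 7.13 in control cells. In RNA from whole cultures, fewer cells of a type and less RNA per cell cannot be told apart.

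Ptprz1 had by far the most negative difference of the 10 phosphatases, and it alone differed by more than 1 on the log2 scale. The family was chosen for that known fall, so this rank is no finding. Of the 9 others, only Ptprj passed the limma test at an adjusted p of 0.05 over all 19938 genes, and it was lower in L1CAM cells. That is 1 of 9, where the same test called 15.0% of all genes, 8.19% lower and 6.85% higher in L1CAM cells. Of the 9, 8 exceeded the array median on 3 or more arrays. Among all 11409 genes that did so, 13.4% were called lower and 10.6% higher. Other shares given here are over all genes, dim ones included, unless a level is named. Of the 9, 4 differences lay below 0 and 5 above, with a median of 0.09, and the median over all genes was 0.02. In 4 of the 9 the arrays of the groups did not overlap, against 34.6% of all genes. In 8 of the 10 the difference was smaller than 0.35. Without L1CAM replicate 1 the test called 5 of the 9, where it called 24.8% of all genes. With array weights, which gave that array the lowest weight (0.32), it also called 5, where it called 26.0% of all genes.

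**Figure D1:**
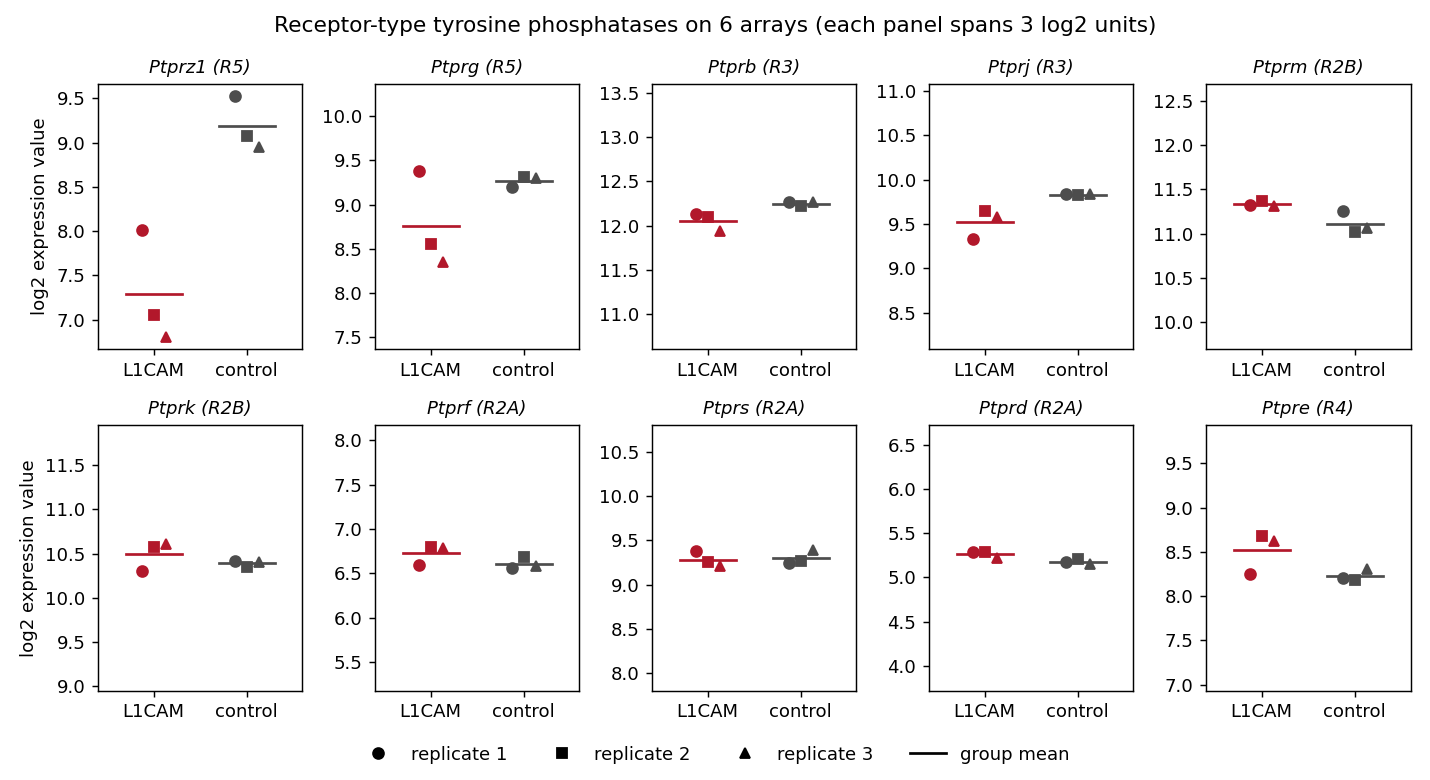
RMA log2 values (vertical axis, 3 log2 units in every panel) of the 10 phosphatases on the 3 L1CAM and 3 control arrays; symbols mark the replicate and horizontal lines the group means. Ptprz1 is the only panel with a gap of 0.94 between the groups, and Ptprg shows 1 L1CAM array at 9.38 among the control values.

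The DNA before the start of Ptprz1 and of Ptprj is shown. The family was chosen for Ptprz1, and of the 9 members tested Ptprj alone was past the threshold. Each window holds the 250 bases before and the 50 bases after a RefSeq transcript start in GRCm38.p6. It is printed on the gene's own strand with the letters GGGCGG, the core of a GC box, in capitals on either strand. Ptprz1 lies on the plus strand at chr6:22875252-22875551. Ptprj lies on the minus strand, and its start with the richer GC content is at chr2:90580546-90580845. The other Ptprj start in the table has no match and 45% G and C.
Ptprz1: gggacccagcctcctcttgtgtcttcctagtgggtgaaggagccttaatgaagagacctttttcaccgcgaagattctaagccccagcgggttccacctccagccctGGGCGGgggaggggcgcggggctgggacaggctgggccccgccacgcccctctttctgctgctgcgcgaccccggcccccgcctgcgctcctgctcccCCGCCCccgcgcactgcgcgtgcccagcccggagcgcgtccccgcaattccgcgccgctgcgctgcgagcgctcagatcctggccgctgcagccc
Ptprj: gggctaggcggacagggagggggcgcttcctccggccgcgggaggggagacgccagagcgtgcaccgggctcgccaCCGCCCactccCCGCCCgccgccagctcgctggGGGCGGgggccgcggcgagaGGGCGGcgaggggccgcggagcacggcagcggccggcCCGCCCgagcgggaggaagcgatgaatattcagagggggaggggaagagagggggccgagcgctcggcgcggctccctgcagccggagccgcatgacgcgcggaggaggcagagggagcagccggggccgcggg
The Ptprz1 window holds 2 such matches and 71.7% G and C, and the Ptprj window 5 matches and 79.3% G and C. Of the 32851 windows in the table, 35.7% hold at least 1 match, and the median content of G and C was 52.7%. Neither window holds the letters TATAAA on either strand, which 13.6% of all windows do. Members that did not pass the test had such windows too. That of Ptprm holds 2 matches and 80.7% G and C, and that of Ptprk 1 match and 75%, and neither holds TATAAA. A window of Ptpre has 0 matches and 47% G and C. A match describes these letters only. Of the 10 genes, 8 have a window in that table.

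Ptprz1 and Ptprg form the R5 subfamily, which carries a carbonic anhydrase-like domain outside the cell and binds contactins, adhesion molecules of neurons. Ptprz1 is best known from glia and neural progenitors. It read 8.02, 7.05 and 6.81 in L1CAM replicates 1, 2 and 3, against 9.52, 9.07 and 8.95 in control replicates 1, 2 and 3. All 3 L1CAM arrays lay below all control arrays, and all 6 values lay above the array medians. L1CAM replicates 2 and 3, at 7.05 and 6.81, lay not far above their medians of 6.58 and 6.57. How far those 2 values stood above background was not shown. The means were 7.29 ± 0.64 in L1CAM cells and 9.18 ± 0.30 in control cells (SD, n = 3 each). The difference was -1.89 (SE 0.30, 95% interval -2.58 to -1.20), or 3.70-fold lower in L1CAM cells, and 11 genes on the array had a more negative one. Since the family was chosen with this fall known, the interval is no test of it. From the control mean, L1CAM replicate 1 lay at -1.16 and replicates 2 and 3 at -2.13 and -2.37. Leaving out any 1 array gave differences between -2.25 and -1.65.

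Ptprg is a widely expressed relative of Ptprz1. It read 9.38, 8.55 and 8.35 in L1CAM replicates 1, 2 and 3, against 9.20, 9.31 and 9.30 in control cells. L1CAM replicate 1 was the highest of all 6 arrays and replicates 2 and 3 were the lowest, so the groups overlapped. The difference was -0.51 (SE 0.23, 95% interval -1.05 to 0.03) and did not pass the limma test (adjusted p = 0.196). Without L1CAM replicate 1 it was -0.82 (SE 0.08, limma adjusted p = 0.000186), and without L1CAM replicate 3 it was -0.31 (limma adjusted p = 0.465). Replicates 2 and 3 lay at -0.72 and -0.92 from the control mean and replicate 1 at 0.10.

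The ligands of this subfamily were mostly dim in these cells. Of 14 contactins and other ligands 0 rose and 1 fell in the limma test, against 6.85% and 8.19% of all genes, and the median difference was 0.04. Only Mdk, Tnc and Ncam1 lay above the array median on every array. None of the 6 contactins did so. Mdk encodes midkine, a heparin-binding growth factor and Ptprz1 ligand. It read 6.94, 6.94 and 6.84 in L1CAM cells, against 7.12, 7.12 and 7.22 in control cells. Its difference was -0.25 (SE 0.06, limma adjusted p = 0.0321), and it kept its call in 1 of the 6 fits that leave out an array, the one without L1CAM replicate 1. Tnc, the matrix protein tenascin-C, differed by 0.25 (limma adjusted p = 0.263), and Ncam1 by -0.29 (limma adjusted p = 0.223).

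Markers of the cells in which Ptprz1 is best known were low. Of 12 measured glial and neural progenitor markers 0 passed the limma test and 0 had an unadjusted p under 0.05, where 15.0% and 29% of all genes did. The highest value of any was 6.99. Only Sox10 and Ncan lay above the array median on every array, and the other 10 lay above it on none. Shares over genes of all levels are no matched yardstick for so dim a list. Among the 11409 genes above the array median on 3 or more arrays, 13.4% were called lower and 10.6% higher. The 0 calls therefore say little about these markers. The smallest p-values were those of Sox10 (difference 0.17, limma adjusted p = 0.193) and Slc1a3 (difference 0.11, limma adjusted p = 0.277). The mean over the list was 6.02 to 6.08 on the L1CAM arrays and 6.00 to 6.02 on the control arrays.

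Genes beside Ptprz1 on chromosome 6 were read as well. Fam3c, its nearest measured neighbour on one side, encodes a secreted cytokine-like protein and read 10.49, 10.39 and 10.38 in L1CAM cells, against 10.88, 11.07 and 10.84 in control cells. It fell by 0.51 (SE 0.07, limma adjusted p = 0.00521). Tspan12, a tetraspanin that takes part in Norrin signalling in retinal vessels, differed by -0.41 (SE 0.06, limma adjusted p = 0.00733), and Cped1 by -0.34 (SE 0.08, limma adjusted p = 0.0269). Ing3, a chromatin reader, differed by -0.24 (limma adjusted p = 0.0574). These were the 4 of 10 neighbours that lay above the array median on every array, and all their L1CAM arrays lay below all control arrays. Over all genes the groups did not overlap in 34.6%, and 8.19% were called lower. The larger shares along chromosome 6 are given in the next paragraph. Fam3c and Tspan12 passed in each of the 6 fits that leave out an array, and Cped1 in 1, without L1CAM replicate 1. Wnt16, on that same side, and Aass, Fezf1, Cadps2, Rnf133 and Rnf148, on the other side, were dim and did not pass the test, with differences of -0.21 to 0.17.

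Genes across chromosome 6 were called lower more often than higher. Of all 1099 measured genes of the chromosome, 20.8% were called lower and 2.73% higher in L1CAM cells, with a median difference of -0.04. Among the 565 of them that exceeded the array median on 3 or more arrays, 39.5% were called lower and 4.78% higher in L1CAM cells. Over all 11409 genes at such levels the shares were 13.4% lower and 10.6% higher. The median difference of the 565 genes was -0.19, and from the control mean it was -0.20, -0.17 and -0.17 in L1CAM replicates 1, 2 and 3. Those are medians over many genes. The values of the single gene Ptprz1 in the same arrays were -1.16, -2.13 and -2.37 from its control mean. The part of the chromosome in the fall of Ptprz1 was not tested.

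**Figure D2:**
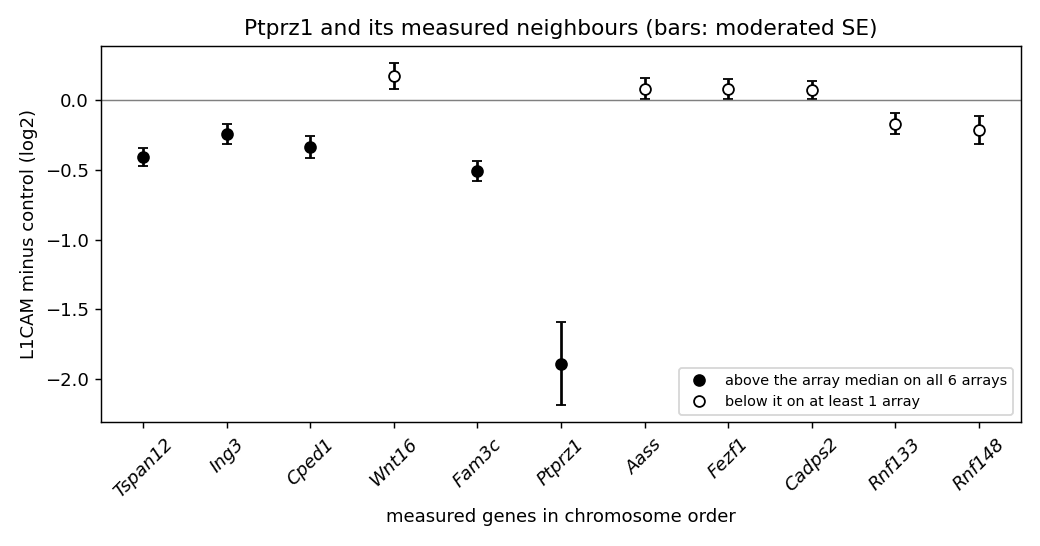
L1CAM minus control difference (log2, vertical axis, bars are moderated SE) of Ptprz1 and the 5 nearest measured genes on each side in chromosome order; filled points lay above the array median on all 6 arrays. The 4 filled neighbours lie between -0.51 and -0.24, and Ptprz1 at -1.89.

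Ptprb and Ptprj belong to the R3 subfamily, with a single catalytic domain and fibronectin-type repeats outside the cell. Ptprb read 12.13, 12.10 and 11.94 in L1CAM cells, against 12.26, 12.22 and 12.26 in control cells. All L1CAM arrays lay below all control arrays, with a gap of 0.095. The difference of -0.19 (SE 0.06, 95% interval -0.34 to -0.04) did not pass the limma test (adjusted p = 0.0878). It passed without L1CAM replicate 1, where it was -0.23 (limma adjusted p = 0.0381).

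Ptprj, also known as DEP-1, is a phosphatase of endothelial and blood cells that acts on growth factor receptors. It read 9.33, 9.65 and 9.58 in L1CAM cells and 9.83 on each of the 3 control arrays. The L1CAM arrays all lay below the control arrays, and replicate 1 lay lowest. The difference was -0.31 (SE 0.08, 95% interval -0.51 to -0.12), or 1.24-fold lower in L1CAM cells, with a limma adjusted p of 0.0462. The spread of the control arrays was very small (SD 0.0028). The second Ptprj probe set read 8.75, 9.13 and 9.02 in L1CAM cells, against 9.17, 9.24 and 9.23 in control cells, a difference of -0.25 with no overlap. Without L1CAM replicate 1 the difference shrank to -0.22 and the call was kept (limma adjusted p = 0.0246). The call was also kept without L1CAM replicate 2 (difference -0.38, limma adjusted p = 0.0493). It was lost without L1CAM replicate 3 and without each control replicate in turn (limma adjusted p between 0.1005 and 0.137). It was also lost for the mean of both probe sets (limma adjusted p = 0.0779).

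Of 18 junction and receptor partners of the endothelial phosphatases, 1 rose and 2 fell in the limma test, against 6.85% and 8.19% of all genes, and 15 did not pass. The median difference was -0.02. Cdh2, N-cadherin, rose by 0.66 (SE 0.13, limma adjusted p = 0.0145), with 9.12, 9.45 and 9.41 in L1CAM cells and 8.91, 8.60 and 8.50 in control cells. Flt1, a VEGF receptor, fell by 0.82 (SE 0.17, limma adjusted p = 0.0192). Met, the receptor of hepatocyte growth factor and a substrate of Ptprj, fell by 0.27 (SE 0.07, limma adjusted p = 0.0378), and it lies on chromosome 6. Flt1 and Met kept their calls in 1 of the 6 fits that leave out an array, the one without L1CAM replicate 1, and Cdh2 in 2, without L1CAM replicate 1 or control replicate 1. The receptors and VE-cadherin through which Ptprb is known to act did not pass the limma test. Cdh5, VE-cadherin, differed by -0.08 (limma adjusted p = 0.368), Tek by -0.08 (limma adjusted p = 0.365), the related receptor Tie1 by -0.11 (limma adjusted p = 0.238) and Kdr, a VEGF receptor, by 0.01 (limma adjusted p = 0.951).

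Ptprm and Ptprk belong to the R2B subfamily, whose members bind their own kind on neighbouring cells and associate with cadherins. Ptprm read 11.32, 11.36 and 11.31 in L1CAM cells, against 11.25, 11.02 and 11.06 in control cells. The L1CAM arrays all lay above the control arrays, with a gap of 0.057. The difference of 0.22 (SE 0.07, 95% interval 0.05 to 0.39) did not pass the limma test (adjusted p = 0.0827), and it passed without control replicate 1, where it was 0.29 (limma adjusted p = 0.0360). Ptprk read 10.30, 10.57 and 10.60 in L1CAM cells, against 10.41, 10.35 and 10.41 in control cells. L1CAM replicate 1 was the lowest of all 6 arrays and replicates 2 and 3 the highest. The difference was 0.10 (SE 0.09, 95% interval -0.10 to 0.30, limma adjusted p = 0.488), and 0.20 without L1CAM replicate 1 (limma adjusted p = 0.0356). Without L1CAM replicate 2 or 3 it was 0.06 or 0.05, with limma adjusted p-values of 0.759 and 0.809.

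Ptprf, Ptprs and Ptprd form the LAR group, or R2A subfamily, which binds heparan and chondroitin sulphate proteoglycans and is best known from axons and synapses. None of the 3 passed the limma test over the 6 arrays. Ptprf, LAR itself, read 6.59, 6.79 and 6.79 in L1CAM cells, against 6.56, 6.69 and 6.59 in control cells, values close to the array medians and above them on 5 of the 6 arrays. Its difference was 0.11 (SE 0.07, 95% interval -0.06 to 0.28, limma adjusted p = 0.367), and the groups overlapped. Without L1CAM replicate 1 it was 0.18 (limma adjusted p = 0.0749). Ptprs read 9.38, 9.25 and 9.22 in L1CAM cells, against 9.25, 9.27 and 9.39 in control cells. The groups covered nearly the same range, and the difference was -0.02 (SE 0.07, 95% interval -0.18 to 0.14, limma adjusted p = 0.899). Ptprd read 5.29, 5.29 and 5.22 in L1CAM cells, against 5.17, 5.20 and 5.16 in control cells. All 6 values of Ptprd lay under the array medians, so it was not shown to be above background, and its difference of 0.09 (limma adjusted p = 0.307) carries that limit.

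Of 31 ligands and cytoplasmic partners of the LAR group, 1 rose and 2 fell in the limma test, against 6.85% and 8.19% of all genes. The median difference was 0.02. Ppfibp1, or liprin-beta-1, of the liprin family that binds the inner part of these phosphatases, read 11.20, 11.23 and 11.23 in L1CAM cells and 11.76, 11.76 and 11.72 in control cells. It fell by 0.53 (SE 0.05, limma adjusted p = 0.000934), kept its call whichever array was left out, and lies on chromosome 6. Ppfia1, or liprin-alpha-1, rose by 0.25 (SE 0.06, limma adjusted p = 0.0324). Sdc1, the heparan sulphate proteoglycan syndecan-1, fell by 0.23 (SE 0.06, limma adjusted p = 0.0456). Each of these calls on Ppfia1 and Sdc1 held in 1 of the 6 fits that leave out an array, for Ppfia1 without L1CAM replicate 1 and for Sdc1 without L1CAM replicate 2.

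Ptpre, of the R4 subfamily, has a short outer part and acts on Src family kinases. It read 8.25, 8.68 and 8.62 in L1CAM cells, against 8.21, 8.19 and 8.30 in control cells. L1CAM replicate 1 lay among the control values and replicates 2 and 3 above them. The difference was 0.28 (SE 0.11, 95% interval 0.03 to 0.54) and did not pass the limma test (adjusted p = 0.132). Without L1CAM replicate 1 it was 0.42 (SE 0.06, limma adjusted p = 0.00194).

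Of 10 measured genes listed as Src family kinases and their regulators, 1 rose and 2 fell in the limma test, and 7 did not pass. The shares of all genes were 6.85% and 8.19%. The genes that passed are not themselves Src family kinases. The median difference was -0.12. Ptk2b, the focal adhesion kinase relative PYK2, read 9.28, 8.95 and 8.96 in L1CAM cells, against 9.86, 9.92 and 10.01 in control cells. It fell by 0.87 (SE 0.10, limma adjusted p = 0.00194) and kept its call whichever array was left out. Shc1, an adaptor protein, fell by 0.35 (SE 0.07, limma adjusted p = 0.0182). Git1, a scaffold protein that Ptprz1 dephosphorylates, rose by 0.30 (SE 0.07, limma adjusted p = 0.0223). The calls on Shc1 and Git1 held in 1 of the 6 fits that leave out an array, the one without L1CAM replicate 1. 

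**Figure D3:**
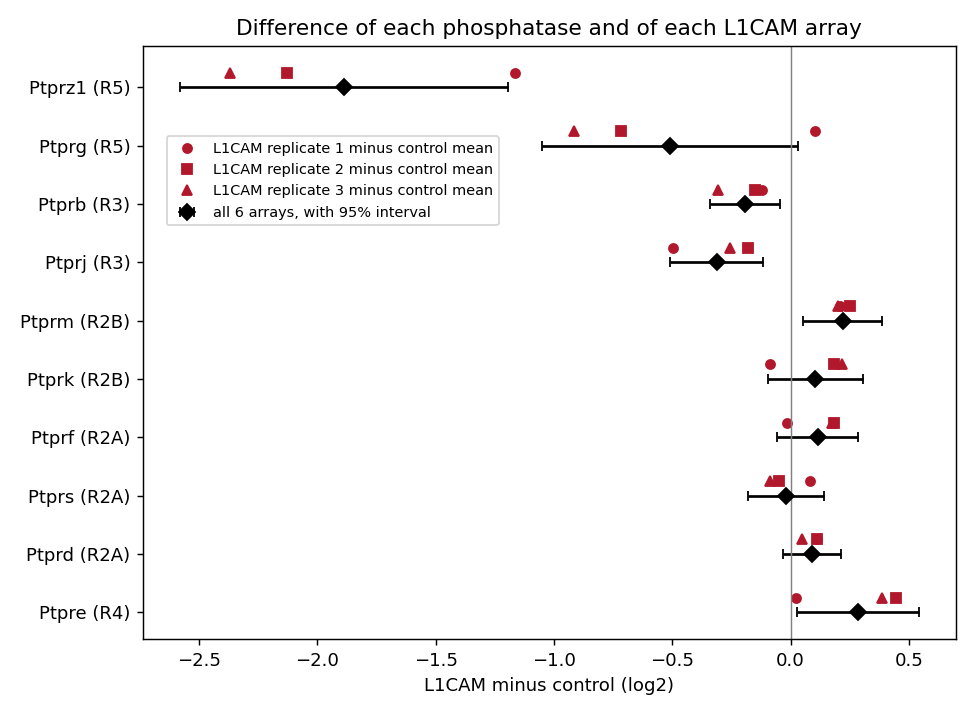
L1CAM minus control difference (log2, horizontal axis) of each phosphatase over all 6 arrays with its 95% interval (black), and each L1CAM array minus the control mean (red). Ptprz1 lies at -1.89, and its interval is no test of its fall. L1CAM replicate 1 stands on the far side of 0 from replicates 2 and 3 for Ptprg, Ptprk, Ptprf and Ptprs.

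The L1CAM replicates therefore did not order in the same way in every member. In L1CAM replicate 1, Ptprg (0.10), Ptpre (0.02), Ptprk (-0.09) and Ptprf (-0.02) lay close to their control means. Ptprj lay furthest from its control mean in that array (-0.50, against -0.18 in replicate 2 and -0.26 in replicate 3). Ptprm lay at 0.21, 0.25 and 0.20 in replicates 1, 2 and 3, and Ptprb at -0.12, -0.15 and -0.31.

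The receptor-type phosphatases outside the 10 showed 0 calls of 10 measured in the limma test, against 15.0% of all genes, and 1 had an unadjusted p under 0.05, against 29% of all genes. Their differences ranged from -0.26 to 0.14 with a median of 0.00 (-0.0019). That 1 gene was Ptprn, a secretory granule protein of the family, named after its values were seen, with 10.15, 10.48 and 10.38 in L1CAM cells, against 10.50, 10.55 and 10.74 in control cells (difference -0.26, SE 0.10, limma adjusted p = 0.130). Ptprc, the leukocyte phosphatase CD45, read 4.86, 4.78 and 4.69 in L1CAM cells and 4.56, 4.60 and 4.73 in control cells, under the array medians. Of the 10, 6 lay under the array median on every array, and the shares of 15.0% and 29% are over genes of all levels.

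Of 17 cytoplasmic tyrosine phosphatases, 0 rose and 2 fell in the limma test, against 6.85% and 8.19% of all genes. An unadjusted p under 0.05 was found for 8 of the 17, against 29% of all genes. The median difference was 0.03. Ptpn3, a phosphatase with a FERM domain, read 7.45, 7.56 and 7.62 in L1CAM cells, against 7.87, 7.97 and 7.86 in control cells. It fell by 0.36 (SE 0.06, limma adjusted p = 0.0119) and lost its call only without control replicate 2. Ptpn14, a phosphatase that binds YAP, fell by 0.20 (SE 0.05, limma adjusted p = 0.0458) and kept its call only without L1CAM replicate 1.

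**Figure D4:**
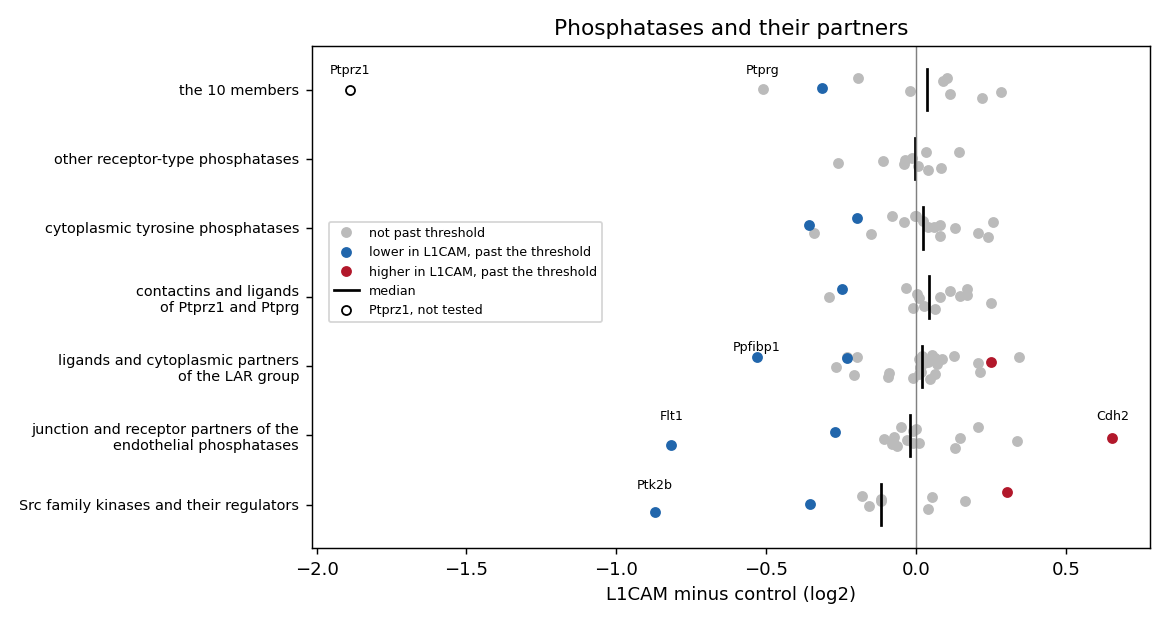
L1CAM minus control differences (log2, horizontal axis) of the 10 phosphatases and 6 lists of relatives and partners; 1 point per gene, black ticks are list medians, Ptprz1 is drawn open as not tested, and names mark differences beyond 0.5. List medians lie between -0.12 and 0.04. Ptprz1, for whose known fall the family was chosen, lies at -1.89, below every gene of the 6 lists.

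Other genes were ranked by how closely their centred values over the 6 arrays followed those of Ptprz1, as a root mean square distance on the log2 scale. The closest was Ly6d, a small membrane-anchored surface protein, at 0.17. It read 7.08, 6.54 and 6.30 in L1CAM cells, against 9.07, 8.62 and 8.37 in control cells. Next were Auts2, a nuclear regulator of neural development (0.23), Miga1, a protein of mitochondrial fusion (0.23), Ociad2 (0.27) and the ubiquitin ligase gene Hectd2 (0.27). Their differences lay between -2.05 and -1.59. None of the 5 lies on chromosome 6. Of the other members the closest was Ptprg, at 0.72, the 592nd of all genes. The ranking is a description, and a lower value in L1CAM than in control cells follows from it for all 5.

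Markers of other cells were read for the whole lists, beside 15.0% of all genes past the limma test and 29% with an unadjusted p under 0.05. These shares are over genes of all levels and are no matched yardstick for lists that are mostly dim. Haematopoietic markers had 0 of 7 measured past the limma test and 0 with an unadjusted p under 0.05, with list means of 6.52 to 6.74 on L1CAM arrays and 6.64 to 6.78 on control arrays. Their smallest p-values were those of Ptprc, given above, and Cd68, a lysosomal protein of macrophages, which read 12.00 to 12.21 in L1CAM cells and 12.10 to 12.38 in control cells (limma adjusted p = 0.320). Cd68, Cd3e and Lyz2 lay above the array median on every array, and the other 4 on none. Lyz2, the lysozyme of myeloid cells, varied most, with 8.40, 7.11 and 7.80 in L1CAM cells and 7.62, 8.54 and 8.56 in control cells (difference -0.47, limma adjusted p = 0.441). Mesenchymal and mural markers had 0 of 11 past the limma test and 1 with an unadjusted p under 0.05, with list means of 6.02 to 6.15 on L1CAM arrays and 6.11 on control arrays. Pdgfra (difference -0.21, limma adjusted p = 0.167) and Tagln (difference -0.11, limma adjusted p = 0.227) came closest. Epithelial markers had 0 of 8 past the limma test and 0 with an unadjusted p under 0.05, with list means of 5.84 to 5.97 on L1CAM arrays and 5.85 to 5.88 on control arrays. Epcam (difference 0.08, limma adjusted p = 0.380) and Cldn18 (difference -0.17, limma adjusted p = 0.387) came closest. Endothelial markers had 1 of 12 lower and 0 higher in the limma test and 2 with an unadjusted p under 0.05. Their list means were 11.45 to 11.48 on L1CAM arrays and 11.54 to 11.56 on control arrays. The median difference was -0.08, with a range of -0.22 to 0.04. In 9 of the 12 the groups did not overlap, against 34.6% of all genes. The member past the threshold was Cldn5, a tight junction protein, lower by 0.22 (limma adjusted p = 0.0446), a call kept only without L1CAM replicate 1. The part of these levels in the differences of the phosphatases was not tested.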

How the data were processed

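Per the submitters' processing notes, the authors made the deposited log2 values with RMA in Affymetrix Expression Console 1.1. RMA subtracts background, brings the arrays to a common distribution and combines probes into 1 value per probe set. The RMA settings and the array's genome build were not given in the sources used here. Gene symbols came from the platform annotation, checked through Entrez identifiers against RefSeq GRCm38.p6 (0 symbols changed). Of 35512 probe sets, 21789 had 1 symbol, 1621 several and 12102 none listed. The brightest 1-symbol probe set per gene was kept, with no filter on dim values; 9 of the 10 members pass such a filter. L1CAM minus control was fitted over all 19938 genes with lmFit and eBayes (limma 3.58.1, R 4.3.3), two-sided, group as the only term, Benjamini-Hochberg adjusted, threshold 0.05. SD is over 3 arrays and SE is moderated. Intervals are unadjusted. Precision is limited by having 3 arrays in each group.

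The members and lists were chosen with earlier results of these data known, so the lists are described by counts and medians. Named genes are the 10 members, L1cam, up to 4 called genes per direction of each list (the 2 with the smallest p where none was called), the 5 genes closest to Ptprz1, its 5 nearest measured neighbours on each side, and Cdh5, Pecam1, Kdr, Tek and Tie1. Tnc, Ncam1, Ncan, Ptprn, Cd3e, Lyz2 and Vwf were named after their values were seen. The fit was checked on simulated data. Ptprt, Lyn and Ptk2 were listed but not analysed here.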

Additional observations from a re-analysis of the deposited data

How the results depend on the processing

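All 13 alternatives were run. The difference of Ptprz1, a description, lay between -2.25 and -1.65 in the 13. Ptprj kept its direction in all 13 and its call in 6. Of the 9 other members, the limma test called 1 with all arrays, where it called 2999 of all 19938 genes. It called 0 after a further quantile normalization (3041 of all genes) and 0 when probe sets of a gene were averaged (3006). With an intensity trend in the variance prior it called 2 of the 9 and 3256 of all genes. With array weights it called 5 of the 9 and 5191 of all genes. Leaving out single arrays gave 0 to 5 of the 9 and 1033 to 4952 of all genes. The 10 receptor-type phosphatases outside the members showed 0 calls in all 13. Of 116 values of the 9 other members, 97 kept direction and side of the threshold, 7 lost a call (all Ptprj), 10 gained one (Ptprb, Ptpre, Ptprg, Ptprk and Ptprm) and 2 changed sign without a call (Ptprs, 0.02 without L1CAM replicate 3 and 0.03 without control replicate 3). The filter on dim probe sets removed Ptprd. The cause of these changes was not tested. With the replicate number as a block, 0 of the 9 were called (Ptprj, limma adjusted p = 0.0687), and 2067 of all genes were called. The deviations of same-numbered arrays from their group means correlated across genes at -0.10, -0.10 and -0.03, and no array correlated best with its own number, so the numbers were not taken as pairs. Array number and unknown background, not depth, limit dim members such as Ptprd and Ptprf.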
